A study of Gallus gallus with 6 samples.

Results

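The DNA replication genes examined here were a list of 35, from the proteins that mark and open replication origins to those that copy DNA, supply its nucleotides and restore chromatin behind the fork. Members were taken by gene symbol, as every probe set of the array to which the platform annotation gives a single symbol on the list. This found 59 probe sets of 31 genes, among 38439 probe sets and 13009 named genes in all. The other 4 members, CDC6, GINS2, MCM4 and MCM7, had no such probe set in the annotation used and were not analysed here.

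The cells came from the bursa of Fabricius, where B cells of birds multiply and diversify their receptors, of line 0 chickens aged 3 weeks. In each culture 2000000 bursal cells were laid on a monolayer and left overnight at 37 °C under 5% CO2 in medium with 4% serum, then washed off, and Affymetrix chicken arrays were hybridised with biotin-labelled material from 10 µg of their RNA. The monolayer was of DF-1 cells, a line of chicken embryo fibroblasts that stick to the dish, in both groups. In the control group, of 3 arrays, it carried the vector, and in the SCA2 group, also of 3 arrays, it expressed stem cell antigen 2, a small lipid-anchored membrane protein, with a Flag tag. The labels name no change made to the bursal cells themselves, and do not say whether each culture had its own birds, so the spread between arrays may be partly technical.

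Vertebrate cells prepare each origin in G1 phase, when the origin recognition complex, CDC6 and CDT1 load the ring of MCM proteins that will unwind DNA. In S phase CDC45 and GINS turn the ring into a working helicase, polymerase alpha with primase starts each strand, and a sliding clamp, PCNA, holds the main polymerases to it. Many of these genes are switched on together by E2F transcription factors once the RB protein is inactivated, a step in which cyclin E and CDK2 take part. The bursa is known for its many dividing B cells.

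On their brightest probe sets the replication genes were bright in both groups, and where they differed they differed by less than 2-fold. Each gene is given by its brightest probe set over the 6 arrays, and by this the 31 members stood between percentiles 62.2 and 99.2 of all probe sets by mean intensity, with a median of 91.2. These percentiles are raised by the choice, since all probe sets include the dimmer ones of each gene. Other probe sets of members lay as low as percentile 0.52 (HELLS). On cells recovered from the SCA2 monolayer 15 of the 31 genes were higher, 2 were lower, and 14 did not pass the test. The test was limma over all 38439 probe sets, with Benjamini-Hochberg adjusted p under 0.05. It also gave every other adjusted p here, except where an alternative fit, probe set filter or joining of probe sets is named. In the same fit 26.2% of all 13009 named genes were higher and 20.8% lower, and among the named genes above a background mark, a log2 intensity of 4.96, the shares were 30.9% and 23.1%. All 31 members were above that mark, as were 10767 of the 13009 named genes, each by its brightest probe set. Of the 59 member probe sets 49 were. The members' shares were 48.4% higher and 6.45% lower. Their log2 changes ran from -0.49 to 0.99 with a median of 0.25, and 0 of the 31 reached a 2-fold change. The median was -0.013 over all named genes and 0.023 over those above the mark.

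Leaving out SCA2 1 or SCA2 3 reduced the 15 higher genes to 8, with 2 lower in each case. Cyclic loess normalization gave 9 higher and 6 lower. In probe sets, the members' 22 higher and 6 lower became 14 and 5 without SCA2 1, and 14 and 6 without SCA2 3. Under cyclic loess they became 15 and 10. Over all 38439 probe sets, 6992 higher and 6565 lower calls became 5378 and 4497 without SCA2 1. These calls became 5499 and 4712 without SCA2 3, and 6591 and 6219 under cyclic loess. The groups did not overlap for 22 members, with all SCA2 arrays above all control arrays for 19 and below for 3. Among all named genes they did not overlap for 61.3% (32.6% above and 28.7% below). Of the 10767 named genes above the mark, 4090 had all SCA2 arrays above and 3274 all below. Within groups the arrays were close. The mean of the 31 members relative to the control mean was 0.02, -0.06 and 0.03 (log2) for control 1 to 3 and 0.28, 0.18 and 0.22 for SCA2 1 to 3. SCA2 2 gave the lowest value of its group for 21 of the 31 genes and SCA2 1 the highest for 19.

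**Figure D1:**
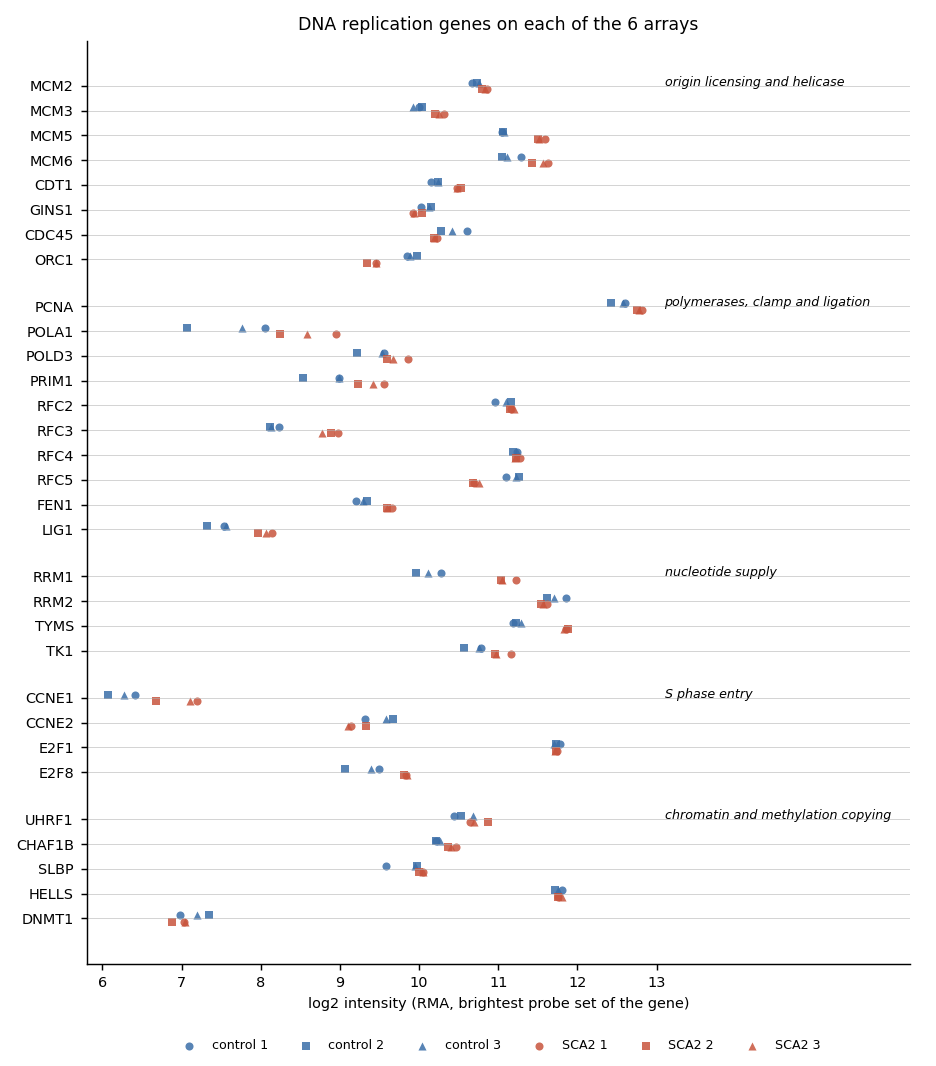
Log2 RMA intensity (x axis) of the brightest probe set of each of the 31 genes (y axis, ordered by role) on the 3 control arrays (blue) and the 3 SCA2 arrays (red), with a marker shape for each replicate number. Most members lie between 9 and 12, and the groups of TYMS, MCM5, RFC3, RRM1, ORC1 and RFC5 lie clearly apart.

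Cell type markers had larger changes than the replication genes, with medians of 1.00 for the fibroblast list and -1.24 for the T cell list (log2). The sample was of bursal cells, and the B cell list was bright, with CD79B, a chain of the B cell receptor complex, at 12.75 ± 0.04 (log2 intensity, mean ± SD, n = 3) on control arrays against 11.39 ± 0.13 on SCA2 arrays. Of 25 measured B cell markers 21 were lower and 4 not called, all 25 were above the background mark, and their summed linear intensity went from between 63765 and 66707 in controls to between 24382 and 28837 with SCA2. Of 35 fibroblast markers 23 were higher and 3 lower, and their sum went from between 49963 and 50317 to between 90769 and 92807, while 5 of them (ACTA2, FBLN5, LOX, PDGFRA and THBS2) were not above the mark in either group. Lower sums were found for markers of T cells (9369 to 11022 against 3794 to 3869; 13 of 15 lower), macrophages (41227 to 51472 against 28170 to 32123; 15 of 21 lower and 2 higher) and epithelium (14464 to 24835 against 4935 to 9347; 13 of 16 lower). T cell markers not above the mark were CCR7 and CD2, and those of the other lists were TLR4 and ESRP1. The sum over the replication genes went from between 46385 and 48412 to between 53021 and 55294, a ratio of means of 1.13. The part of these markers in the values below was not tested. In RNA of a mixed harvest, fewer cells of a type and less RNA per cell cannot be told apart. For rises, more cells of the DF-1 monolayer in the harvest and higher levels within bursal cells cannot be told apart either. How many monolayer cells came off with the bursal cells was not tested.

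Origin licensing and the helicase came first in the order of the process. Of 8 measured members in this role 4 rose and 1 fell (50% and 12.5%, where 30.9% and 23.1% of all named genes above the mark did). MCM5, a subunit of the helicase ring, had log2 intensities of 11.04, 11.07 and 11.08 on control 1, 2 and 3, against 11.59, 11.51 and 11.52 on SCA2 1, 2 and 3. The groups were clearly apart, with a rise of 0.48 (SE 0.07, 1.39-fold; limma, adjusted p = 0.00167). MCM6, another subunit, had 11.29, 11.04 and 11.10 on control arrays against 11.63, 11.43 and 11.56 on SCA2 arrays. It rose by 0.39 (SE 0.10), and 3 of its 4 probe sets were called higher, by 0.38 to 0.56, while the dark one, at 2.63 on the control arrays, was not. MCM3 rose by 0.27 (SE 0.07; limma, adjusted p = 0.0293). MCM2 went from 10.72 ± 0.04 to 10.83 ± 0.03, a difference of 0.11 (SE 0.07; adjusted p = 0.28 in limma) that turned to -0.0065 under cyclic loess.

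CDT1, the loading factor, rose by 0.29 (SE 0.07) on the brightest of its probe sets and by 0.41 (SE 0.08) on the other (limma, adjusted p = 0.0161 and 0.00684). Its inhibitor geminin (GMNN), which is no member of the list, moved the other way, from 11.28, 11.69 and 11.51 on the control arrays to 10.75, 10.92 and 10.97 on the SCA2 arrays. GMNN fell by 0.61 (SE 0.12; limma, adjusted p = 0.00644), and all SCA2 values were below all control values. MCM3 lost its call without control 1, control 3, SCA2 1 or SCA2 3 (limma, adjusted p between 0.0532 and 0.108), MCM6 without control 2, control 3, SCA2 1 or SCA2 3 (0.0507 to 0.0677), and CDT1 without SCA2 1 (0.0518) or SCA2 3 (0.0552). All 3 also lost it under cyclic loess (MCM3 0.15, adjusted p = 0.165; MCM6 0.28, 0.0593; CDT1 0.17, 0.0969), MCM3 after a second quantile normalization (0.0777), and MCM6 in the unmoderated test (0.0535).

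ORC1, the largest subunit of the origin recognition complex, was 1 of only 2 members of the list that fell. Its values were 9.85, 9.97 and 9.88 on control arrays against 9.46, 9.34 and 9.46 on SCA2 arrays. The lowest control array lay well above the highest SCA2 array, and the fall was by 0.48 (SE 0.08, 1.40-fold lower; limma, adjusted p = 0.00265). The other subunits of this complex did not move together. Partner subunits named here and below were brought in by complex after their values were seen. ORC4 rose by 0.71 (SE 0.10) and ORC5 by 0.45 (SE 0.10), ORC3 fell by 0.32 (SE 0.08) and ORC2 by 0.28 (SE 0.08), and ORC6 differed by 0.11 (SE 0.07; limma, adjusted p = 0.289), a difference that turned to -0.0062 under cyclic loess. The call of ORC3 was lost without SCA2 3 (limma, adjusted p = 0.0649), and that of ORC2 when any array but SCA2 2 was left out (up to 0.105).

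CDC45 and GINS1, partners of the ring in the working helicase, were not called. CDC45 had 10.61, 10.27 and 10.42 on control arrays against 10.22, 10.19 and 10.18 on SCA2 arrays. All SCA2 values were thus below the control values, with a difference of -0.24 (SE 0.10; limma, adjusted p = 0.107) that passed the test when control 2 was left out (adjusted p = 0.0423) and under cyclic loess (0.0281). GINS1 differed by -0.13 (SE 0.08; adjusted p = 0.226 in limma), and none of its other 3 probe sets, with control means of 3.62 to 5.87, was called. Under cyclic loess GINS1 was called lower (-0.25; adjusted p = 0.0456 in limma). GINS3, a further GINS subunit outside the list, rose by 0.61 (SE 0.07; limma, adjusted p = 6.4e-04).

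Among the 10 members that prime, copy and join DNA, 6 rose and 1 fell, beside the same 30.9% and 23.1% over all named genes above the mark. RFC3, a small subunit of the complex that loads the clamp, had 8.23, 8.11 and 8.12 on control arrays against 8.98, 8.88 and 8.78 on SCA2 arrays. RFC3 rose by 0.73 (SE 0.08, 1.65-fold; limma, adjusted p = 5.8e-04). RFC5, another subunit of the same complex, had 11.10, 11.26 and 11.23 against 10.69, 10.68 and 10.75. The groups were again apart, in the opposite direction, and RFC5 fell by 0.49 (SE 0.08, 1.40-fold lower; adjusted p = 0.0026 in limma). RFC1, the large subunit and no member of the list, fell by 0.48 (SE 0.09; adjusted p = 0.00529 in limma). RFC2 (0.091, SE 0.08) and RFC4 (0.016, SE 0.07) were not called on their brightest probe sets, and both turned negative under cyclic loess (-0.020 and -0.095), RFC4 also after a second quantile normalization (-0.049). The mean of both probe sets of RFC4 was called higher (0.28, adjusted p = 0.0151 in limma). The dimmer of them was called higher (0.55, SE 0.09) and lay at 5.10 on the control arrays, where the background mark was 4.96.

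PCNA, the clamp itself, was the brightest member, with 12.60, 12.43 and 12.58 on control arrays against 12.81, 12.76 and 12.78 on SCA2 arrays. The rise was small, by 0.25 (SE 0.08, 1.19-fold; limma, adjusted p = 0.046). This call was lost when any array but control 1 was left out (adjusted p 0.0745 to 0.137 in limma), under cyclic loess (0.15; 0.190) and after a second quantile normalization (0.0929). LIG1, the ligase that joins the fragments of the lagging strand, had 7.54, 7.32 and 7.56 against 8.14, 7.97 and 8.07, a rise of 0.58 (SE 0.09; adjusted p = 0.0027 in limma). FEN1, the nuclease that trims their flaps, rose by 0.34 (SE 0.07; adjusted p = 0.0105 in limma). The call of FEN1 was lost under cyclic loess (adjusted p = 0.0502 in limma).

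Polymerase alpha and primase, which act as a single complex, had 3 of 4 measured subunits higher. Over all named genes above the mark the share higher was 30.9%. POLA1, the catalytic subunit, varied within groups, with 8.05, 7.06 and 7.76 on control arrays against 8.96, 8.24 and 8.58 on SCA2 arrays. Replicate 1 was the highest and replicate 2 the lowest in both groups, and the gap between the groups, from 8.05 to 8.24, was smaller than the range within either. POLA1 rose by 0.97 (SE 0.27, 1.96-fold; limma, adjusted p = 0.0302). PRIM1, the catalytic subunit of primase, had 8.99, 8.53 and 8.99 against 9.55, 9.22 and 9.41 and rose by 0.56 (SE 0.15; adjusted p = 0.0237 in limma). Its partner PRIM2, outside the list, rose by 1.15 (SE 0.09; adjusted p = 1.3e-04 in limma), and POLA2 differed by 0.12 (SE 0.07; adjusted p = 0.233 in limma). The call of POLA1 was lost without control 2, control 3, SCA2 1 or SCA2 3 (adjusted p 0.0553 to 0.0977 in limma), and that of PRIM1 without SCA2 1 (0.0835) or SCA2 3 (0.0726). Both were lost in the unmoderated test (0.132 and 0.0989).

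POLD3, an accessory subunit of polymerase delta, was the only member with called probe sets in both directions. Its 5 probe sets lay at control means between 6.24 and 9.44. The brightest differed by 0.27 (SE 0.12; limma, adjusted p = 0.119), a dimmer one whose identifier shares its stem was called higher (0.37, SE 0.10), and the others were called lower (-0.38, SE 0.08, and -0.55, SE 0.08) or not called (-0.055, SE 0.10). No direction can therefore be given for POLD3 as a gene. A similar disagreement held for UHRF1 and RFC4, where the brightest probe set was not called and a dimmer one was (UHRF1 -0.48, SE 0.12; RFC4 0.55, SE 0.09). Where probe sets of a gene differ, the parts of the transcript they measure are not known here.

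**Figure D2:**
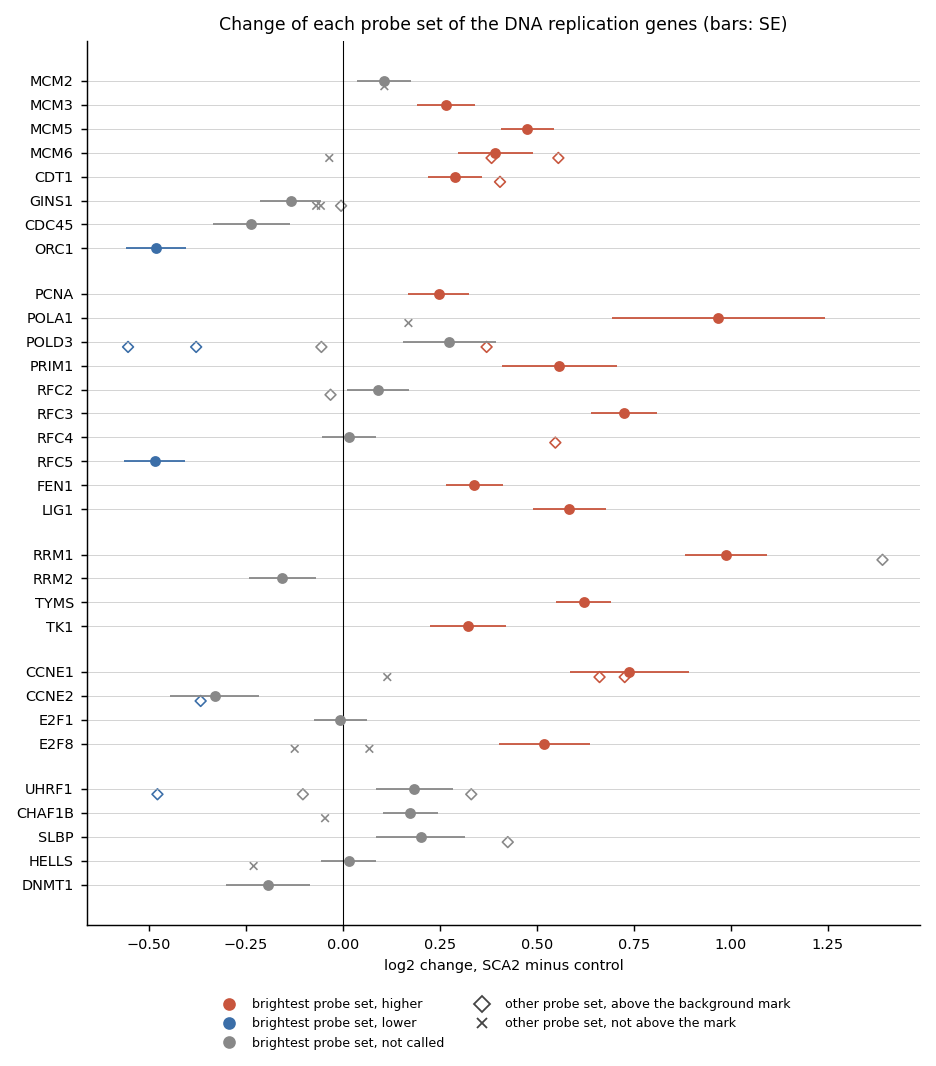
Log2 change, SCA2 minus control (x axis), of all 59 probe sets of the 31 genes (y axis): filled circles with SE bars for the brightest probe set, diamonds for other probe sets above the background mark and crosses for those not above it, red where called higher, blue lower and grey not called. POLD3 has called probe sets on both sides of 0, whereas the called probe sets of MCM6, CDT1 and CCNE1 lie together above 0.

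Of the 4 members that supply nucleotides, 3 rose and 1 was not called, again beside 30.9% higher over all named genes above the mark. RRM1, the large subunit of ribonucleotide reductase, which turns ribonucleotides into deoxyribonucleotides, had 10.28, 9.97 and 10.11 on control arrays against 11.23, 11.04 and 11.05 on SCA2 arrays. RRM1 rose by 0.99 (SE 0.11, 1.98-fold; limma, adjusted p = 4.0e-04). Its second probe set pointed the same way with far more spread, at 7.78, 6.24 and 6.99 against 9.06, 7.61 and 8.51 (1.39, SE 0.46; adjusted p = 0.052 in limma). RRM2, the small subunit with which it works in S phase, had 11.85, 11.61 and 11.71 against 11.61, 11.54 and 11.56. The groups of RRM2 met, and the difference was -0.16 (SE 0.09; adjusted p = 0.205 in limma), while under cyclic loess it was called lower (-0.26; 0.0498). RRM2B, the alternative small subunit and no member of the list, rose by 0.67 (SE 0.07; adjusted p = 5.0e-04 in limma).

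TYMS, which makes the thymidine nucleotide used only in DNA, had 11.19, 11.22 and 11.29 on control arrays against 11.85, 11.88 and 11.83 on SCA2 arrays. The SCA2 values were nearly equal, and TYMS rose by 0.62 (SE 0.07, 1.54-fold; limma, adjusted p = 5.3e-04). TK1, which salvages thymidine, rose by 0.32 (SE 0.10; adjusted p = 0.0386 in limma). TK1 kept its call only without control 1 (0.0454) among the arrays left out in turn, and was otherwise between 0.0545 and 0.129. The call was also lost under cyclic loess (0.21; adjusted p = 0.135), after a second quantile normalization (0.0800) and in the unmoderated test (0.0865). In the list of 29 other genes of nucleotide synthesis, 10 rose and 7 fell (34.5% and 24.1%, near the 30.9% and 23.1% of all named genes above the mark), with a median of 0.061 that became -0.053 under cyclic loess. DCTD (1.42), SHMT1 (0.81) and MTHFD1 (0.65), which act in the route to thymidine nucleotides, and DHODH (0.53), of pyrimidine synthesis, were higher. PPAT (-0.68) and ADSL (-0.54), of purine synthesis, CAD (-0.44), of pyrimidine synthesis, and TK2 (-0.60), the mitochondrial thymidine kinase, were lower.

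The 4 genes of S phase entry differed within families. CCNE1, which encodes cyclin E1, had 6.41, 6.07 and 6.28 on control arrays against 7.19, 6.68 and 7.10 on SCA2 arrays. It rose by 0.74 (SE 0.15, 1.67-fold; limma, adjusted p = 0.0085), and 3 of its 4 probe sets were called higher, by 0.66 to 0.74, while the other was dark in both groups. The call was lost in the unmoderated test (adjusted p = 0.0583). CCNE2, which encodes cyclin E2, was brighter and pointed the other way, with 9.32, 9.67 and 9.58 against 9.14, 9.33 and 9.11. The groups of CCNE2 overlapped at 9.32 and 9.33, and the difference of -0.33 (SE 0.11) did not pass (adjusted p = 0.0615 in limma), although its second probe set did (-0.37, SE 0.07; 0.00776). CCNE2 was called lower in 9 of 17 alternatives, among them the mean of its probe sets (-0.35; adjusted p = 0.0112 in limma). The others included, on the brightest probe set, cyclic loess (adjusted p = 0.0242), a second quantile normalization (0.0340), array weights (0.0152) and the removal of control 1 (0.0181).

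E2F1, an activator of the replication genes, had 11.78, 11.73 and 11.71 on control arrays against 11.75, 11.73 and 11.71 on SCA2 arrays, a difference of -0.0061 (SE 0.07) that became 0.027 when arrays were centred on their medians. E2F8, a repressor of the same genes that is itself an E2F target, went from 9.31 ± 0.22 to 9.83 ± 0.02. It rose by 0.52 (SE 0.12; limma, adjusted p = 0.012), and its other 2 probe sets were not above the background mark. The call was lost with the mean of all 3 (0.16; adjusted p = 0.234) and in the unmoderated test (0.0572). Other cyclins, kinases, inhibitors and factors of this step went both ways, with 11 of 32 higher and 13 lower (median -0.075, mean 0.0094). These shares were 34.4% and 40.6%, beside 30.9% and 23.1% over all named genes above the mark. After a second quantile normalization 11 were higher and 14 lower (median -0.15), and the same under cyclic loess (median -0.17). With arrays centred on their medians 11 were higher and 10 lower (median -0.042). Higher were the D-type cyclin gene CCND1 (0.90), the repressor gene E2F7 (0.65) and SKP2 (0.57), which marks the inhibitor p27 for destruction. The CDK partners CKS2 (0.78) and CKS1B (0.39), and CDKN2A (0.82), were also higher. Lower were CDKN1B, which encodes p27 (-0.91), CDKN2B (-1.04), another CDK inhibitor, the repressive E2F genes E2F6 (-0.70), E2F4 (-0.59) and E2F5 (-0.43), and MYCN (-0.73). The other D-type cyclin genes, named after their values were seen, were called lower (CCND2 -0.37, SE 0.08; CCND3 -0.25, SE 0.07), and the call of CCND3 was lost whichever array was left out.

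None of the 5 members that copy chromatin and methylation was called by limma after adjustment. Among all named genes above the mark 30.9% were higher and 23.1% lower, and 47.0% of all named genes were called. On the brightest probe sets 1, CHAF1B, had an unadjusted p under 0.05. It passed in the unmoderated test (adjusted p = 0.0318) and among probe sets above the median mean (0.0440). Limma with a variance trend and robust fit also called it (adjusted p = 0.0430). CHAF1B, a subunit of the factor that places histones on new DNA, had 10.22, 10.22 and 10.27 on control arrays against 10.46, 10.36 and 10.40 on SCA2 arrays. The groups of CHAF1B did not meet, and the difference was 0.17 (SE 0.07; limma, adjusted p = 0.0992). SLBP, which binds the stem-loop of histone messages, differed by 0.20 (SE 0.11) and by 0.43 (SE 0.14; adjusted p = 0.0514 in limma) on its probe sets. UHRF1, which brings the maintenance methyltransferase to new DNA, differed by 0.18 (SE 0.10) on its brightest probe set, while a dimmer one was called lower (-0.48, SE 0.12). That methyltransferase, DNMT1, differed by -0.19 (SE 0.11). HELLS, a chromatin remodeller needed for DNA methylation, had 11.80, 11.71 and 11.75 against 11.76, 11.75 and 11.80, a difference of 0.015 (SE 0.07) that became -0.070 after a second quantile normalization and -0.092 under cyclic loess.

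Members of a complex, family or role were also set against each other within arrays. The log2 difference of the brightest probe sets was taken for 4 pairs chosen after their values were seen. Of these, MCM5 and ORC1 belong to different complexes and share only the role of origin licensing and the helicase. RRM1 minus RRM2 was -1.57, -1.64 and -1.60 on control arrays against -0.38, -0.50 and -0.51 on SCA2 arrays, a change of 1.14. RFC3 minus RFC5 changed by 1.21, from -3.04 ± 0.15 to -1.83 ± 0.13 (mean ± SD, n = 3). MCM5 minus ORC1 changed by 0.96, from 1.16 ± 0.06 to 2.12 ± 0.05, and CCNE1 minus CCNE2 by 1.07, from -3.27 ± 0.34 to -2.20 ± 0.39. The groups did not overlap in any pair, which the choice of the pairs made likely, so these values are a description with no test. They give no relative level of paired genes, since probes differ in brightness.

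**Figure D3:**
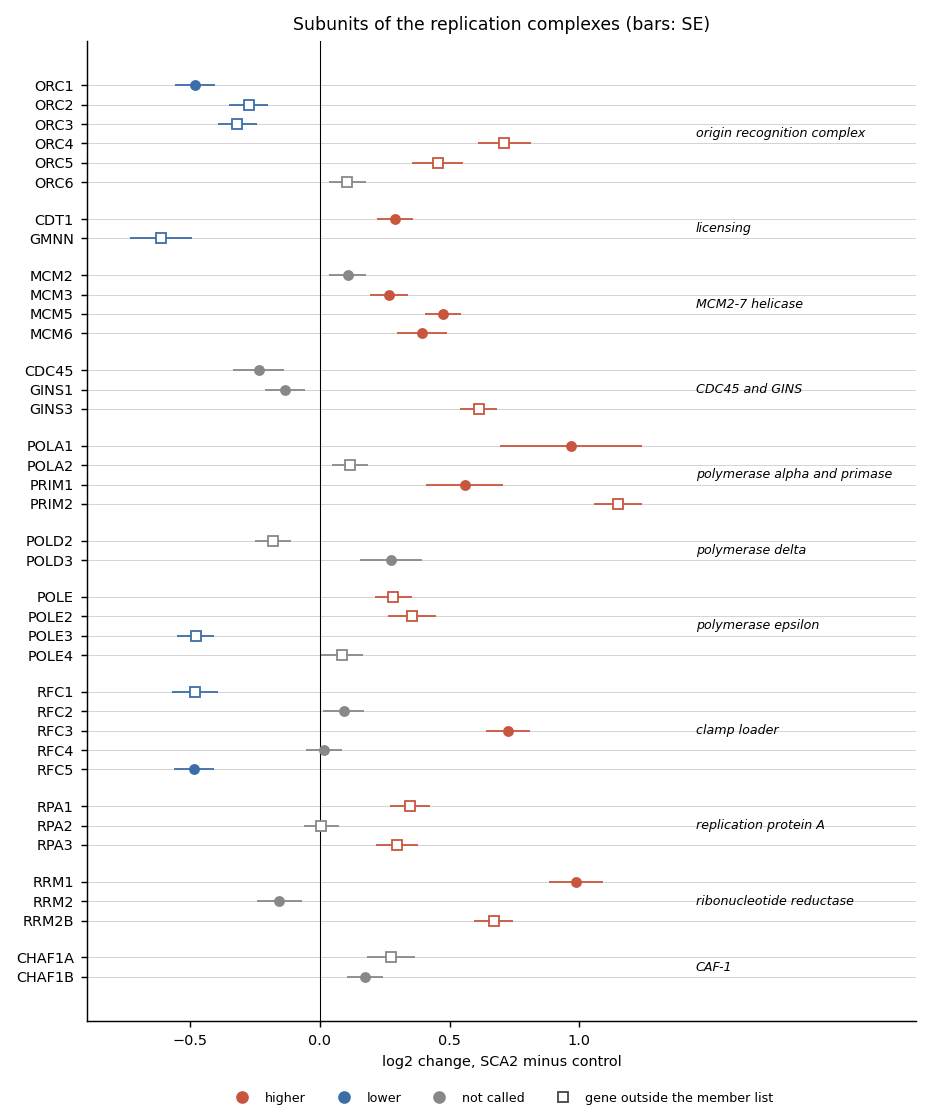
Log2 change, SCA2 minus control, with SE (x axis), of the measured subunits of the replication complexes (y axis), filled circles for the listed replication genes and open squares for other genes, red where called higher, blue lower and grey not called. The origin recognition complex, polymerase epsilon and the clamp loader hold called subunits in both directions, while the measured subunits of the MCM ring and of polymerase alpha with primase lie at or above 0.11.

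Other genes of origins and forks, outside the list, gave counts of 17 higher and 8 lower of 42 measured, with a median of 0.11. These shares were 40.5% and 19.0%, beside 30.9% and 23.1% over all named genes above the mark. The call was kept whichever array was left out for 10 of the 17 and 4 of the 8. After a second quantile normalization the counts were 13 and 11, and also under cyclic loess. Higher were TIPIN, which protects stalled forks (1.42, SE 0.09), the helicase relative MCM9 (0.48, SE 0.09), and CHTF8, of an alternative clamp loader (0.59, SE 0.08). Lower were POLE3, a histone-fold subunit of polymerase epsilon (-0.48, SE 0.07), RNASEH1, which removes RNA from hybrids with DNA (-0.36, SE 0.07), and MCM8 (-0.31, SE 0.07), whose call was lost without SCA2 1 or SCA2 3 (adjusted p up to 0.0672 in limma).

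Genes that watch the fork and genes of mitosis were measured beside them. Of 19 checkpoint genes 12 were higher and 2 lower, with a median of 0.37. These shares were 63.2% and 10.5%, beside 30.9% and 23.1% over all named genes above the mark. The call was kept whichever array was left out for 6 of the 12 and 1 of the 2. After a second quantile normalization, and also under cyclic loess, 9 were higher and 3 lower, with a median of 0.28. With arrays centred on their medians 14 were higher and 1 lower. CHEK1, the kinase that restrains origins when forks stall, went from 9.73 ± 0.25 to 10.97 ± 0.17 (log2 intensity, mean ± SD, n = 3) and rose by 1.24 (SE 0.15; limma, adjusted p = 6.3e-04). HUS1, of the checkpoint clamp, rose by 0.84 (SE 0.10), and EXO1, a nuclease, by 0.91 (SE 0.14), while ATRIP, which brings the kinase ATR to single-stranded DNA, fell by 0.59 (SE 0.12). Of 34 genes of mitosis and the spindle 18 were higher and 4 lower (52.9% and 11.8%, beside the same 30.9% and 23.1%), with a median of 0.35. The call was kept whichever array was left out for 15 of the 18 and 1 of the 4. After a second quantile normalization 17 were higher and 4 lower, under cyclic loess 16 and 4, and with arrays centred on their medians 20 and 3. KIF20A (1.33, SE 0.10) and PRC1 (1.14, SE 0.09), which act in cytokinesis, rose, and MKI67, the proliferation marker, fell by 0.42 (SE 0.07). No test of the differences between these lists was made.

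**Figure D4:**
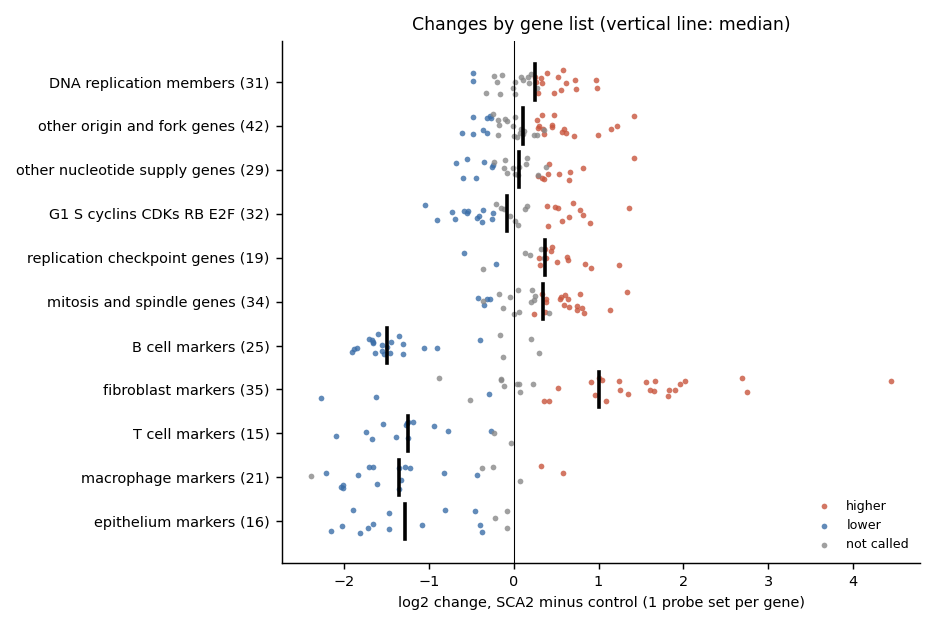
Log2 change, SCA2 minus control, of each measured gene (points, 1 probe set per gene) in the replication list, the other lists of the cell cycle and the cell type markers, with the median of each list as a line. The replication genes lie between -0.49 and 0.99 with a median of 0.25, whereas the medians of the marker lists lie farther from 0 on either side.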

How the data were processed

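RNA of the cells washed off the monolayer in 3 control and 3 SCA2 cultures was hybridised to 1-colour Affymetrix chicken arrays. The deposited values are intensities that the authors made with RMA, per the submitters' processing notes, with its version and settings not given in the sources used here. The values run from 4.28 to 20715 on a linear scale, with array medians of 51.2 to 53.1, and log2 of the deposited values was taken here before any test. RMA corrects background and equalises array distributions, so a change is relative to the other probe sets of its array. Precision is limited by there being 3 arrays a group.

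Of 38535 probe sets, 96 array controls were left out. By the platform annotation 27168 of the rest had 1 gene symbol, 177 several and 11094 none, and the reference gene table changed 0 symbols. SCA2 minus control was fitted by limma 3.58.1 (lmFit and eBayes, R 4.3.3) over all 38439 probe sets, with Benjamini-Hochberg adjustment over all of them and a threshold of 0.05. The script was tested on simulated data. Each gene is given by its probe set of the highest mean over the 6 arrays. The background mark is the 95th percentile of the mean log2 value of 746 probe sets whose identifiers start with neither Gga nor AFFX. Figures were drawn with matplotlib 3.10.9 in Python 3.11.15.

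All members found may be named, and of each other list up to 6 called genes in each direction by smallest p. The members and the gene and marker lists were chosen with earlier results of these data known, so their counts are descriptions. The titles call the replicates biological, but separate birds are not stated, so p-values measure the spread between these arrays. The labels give no batch. Arrays of a group correlated at 0.990 to 0.997, and arrays of different groups at 0.962 to 0.980. The alternatives tried were replicate number as a blocking term, other scalings, filters, variance models, thresholds and ways of joining probe sets, and each array left out in turn.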

Additional observations from a re-analysis of the deposited data

How the results depend on the processing

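Of the 17 genes called, 4 of 15 higher (LIG1, MCM5, RFC3 and TYMS) and 2 of 2 lower (ORC1 and RFC5) kept their call in all 17 alternatives in which single genes were refitted, and with each array left out in turn 8 of 15 and 2 of 2 did. Each of the genes named has only 1 probe set. The alternatives that join probe sets in another way took the same values for them and were no check. RRM1 lost its call in only 1 alternative, where its second probe set was taken (adjusted p = 0.052 in limma). The 15 higher genes became 9 under cyclic loess, 6 at an adjusted p under 0.01 and 0 with a 2-fold minimum, and 8 to 14 without single arrays. The 2 lower genes became 6 under cyclic loess, 0 with a 2-fold minimum, 4 with the probe set of the largest SD, and 2 to 3 without single arrays. The 22 higher probe sets became 12 at an adjusted p under 0.01, 0 with a 2-fold minimum and 14 to 22 without single arrays. The 6 lower ones became 10 under cyclic loess, 0 with a 2-fold minimum and 5 to 7 without single arrays. Over all 38439 probe sets, the 6992 higher calls became 4679 at an adjusted p under 0.01 and 1667 with a 2-fold minimum. They became 6591 under cyclic loess and 5378 to 6748 without single arrays. The 6565 lower calls over all probe sets became 6219 under cyclic loess, 1325 with a 2-fold minimum and 4497 to 6335 without single arrays. The members' median change of 0.25 became 0.20 after a second quantile normalization, 0.28 with arrays centred on their medians and 0.15 under cyclic loess, and 0.19 to 0.26 without single arrays. The causes were not tested, apart from the fewer calls that stricter thresholds give by construction.

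With the replicate number as a block, 14 genes were higher and 3 lower, and 24 probe sets higher and 7 lower: PCNA lost its call (limma, adjusted p = 0.0536) and CCNE2 gained one (0.0338). Same-numbered arrays had correlations of 0.41, 0.12 and 0.04 of their deviations from the group means, and control 2 correlated best with SCA2 3 (0.33). With 3 arrays a group these values cannot decide whether same-numbered cultures were paired.

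Of the genes that were not called, 7 changed sign, 5 of them with differences of 0.11 or less in size and 2, POLD3 (0.27) and UHRF1 (0.18), where their probe sets were joined in another way. E2F1 (-0.0061) became 0.027 with centring and ran from -0.021 to 0.014 without single arrays. HELLS (0.015) became -0.070 after quantile normalization, -0.092 under cyclic loess, -0.11 as the mean of its probe sets and -0.23 with that of the largest SD, and ran from -0.0065 to 0.039 without single arrays. MCM2 became -0.0065 and RFC2 -0.020 under cyclic loess, and RFC2 -0.031 with the probe set of the largest SD. RFC4 became -0.049 after quantile normalization and -0.095 under cyclic loess, and ran from -0.0053 to 0.029 without single arrays. POLD3 became -0.068 as the mean of its probe sets and -0.55 with that of the largest SD, and UHRF1 -0.016 and -0.48, both called lower with the latter. Over 527 values of single genes, 447 kept direction and call, 44 lost the call, 18 gained one and 18 changed sign. RMA values carry no detection call, so how far dim probe sets stand over background is known here only from the mark.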

Other observations

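The changes were not confined to dim or bright members. Among the 15 brighter members, with mean log2 intensities of 10.36 to 12.66, 7 were higher and 1 lower, with a median change of 0.18. Among the 16 dimmer members, at 6.62 to 10.32, 8 were higher and 1 lower, with a median change of 0.27. Over all named genes above the mark the shares were 30.9% higher and 23.1% lower, and none were taken over genes of like brightness. The spread within groups differed between them, with a median SD over the 31 members of 0.10 in controls and 0.05 with SCA2, against 0.13 and 0.10 over all probe sets.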
